A study of Homo sapiens with 6 samples.

Results

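The genes described are 9 regulators of blood clotting and of plasminogen activation, TFPI, TFPI2, F3, THBD, PROS1, SERPIND1, PLAU, PLAUR and PLAT, among 17687 genes measured. They were chosen from a list of symbols because TFPI and SERPIND1 fell in the comparison reported here, siERK3 minus siCon. The values of that comparison are therefore given for the 9 genes as a description, with no p-value. Expression was measured on 6 Affymetrix Clariom S Pico human arrays. In the siERK3 group (3 arrays), A375 cells had been transfected for 3 days with a Silencer Select predesigned siRNA against ERK3, an atypical member of the MAP kinase family whose gene is MAPK6. In the siCon group (3 arrays), the same cells had received the Silencer Select negative control siRNA. Both groups were transfected with DharmaFECT and grown in medium with serum. A375 is an established human melanoma line, a single line here. The sources used here give neither the sequence of the siRNA nor how many were used, and the labels do not say whether replicates were separate cultures, so every spread below is the spread between these arrays and may be technical.

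Tissue factor, the product of F3, is a membrane receptor that binds factor VIIa and starts clotting by activating factor X. TFPI shuts this complex off, and thrombin made further down the cascade is held in check by serpins and by the thrombomodulin and protein C system. Clots and pericellular matrix are dissolved by plasmin, which the urokinase and tissue-type activators release from plasminogen. Melanoma cells are known to carry both tissue factor and plasminogen activators, which have been studied in invasion and in thrombosis of patients with cancer.

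MAPK6, the siRNA target, read 10.54, 10.32 and 10.67 in siERK3, against 13.45, 13.55 and 13.62 in siCon on the log2 scale. Its difference, siERK3 minus siCon, was -3.03 (SE 0.14; adjusted p = 0.000133 in limma). The exact two-sided permutation test gave p = 0.1, the smallest that 3 against 3 arrays allow. Array medians lay between 7.06 and 7.10, and the 95th percentile of the 612 negative control probe sets, used here as the background level, between 7.32 and 7.56. On the second principal component siERK3 3 (-15.2) and siCon 2 (-26.5) had negative scores, against 4.35 to 21.7 for the other 4 arrays. Of 9 melanocyte and melanoma markers, 5 lay above background on all 6 arrays, among them SOX10 (11.72 in siERK3 and 11.78 in siCon), while the pigment genes PMEL, MLANA, TYR and TYRP1 lay below it on all 6.

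Of the 9 genes, only TFPI and SERPIND1 were called lower in siERK3 by limma at an adjusted p under 0.05, and 0 were called higher. Over all genes 0.509% were called lower and 0.447% higher; because these calls led to the choice of the genes, nothing is read from the count. The groups were separated with siERK3 lower in 5 of the 9 genes and with siERK3 higher in 2, and they overlapped in 2. Over all genes the groups were separated in this way in 9.7% (siERK3 below) and 10.1% (siERK3 above). The median difference of the 9 genes was -0.22 on the log2 scale, with 6 negative and 3 positive, against -0.0014 over all genes. TFPI and SERPIND1, which led to the choice, are among the 5 separated genes and the 6 negative ones, so nothing is read from these counts or this median either. TFPI, TFPI2, PROS1, PLAUR and PLAT lay above background on all 6 arrays. F3, THBD and PLAU lay below it on all 6, and SERPIND1 lay above it on the 3 siCon arrays and on 0 siERK3 arrays. Of all 17687 genes, 8838 lay below it on all 6. The median SD between arrays of a group was 0.11 in siERK3 and 0.14 in siCon for these genes, against 0.17 and 0.19 over all genes. The SD ranged from 0.05 (PROS1) to 0.40 (SERPIND1) in siERK3 and from 0.08 (PLAUR) to 0.41 (F3) in siCon. Nothing is read from this comparison.

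**Figure D1:**
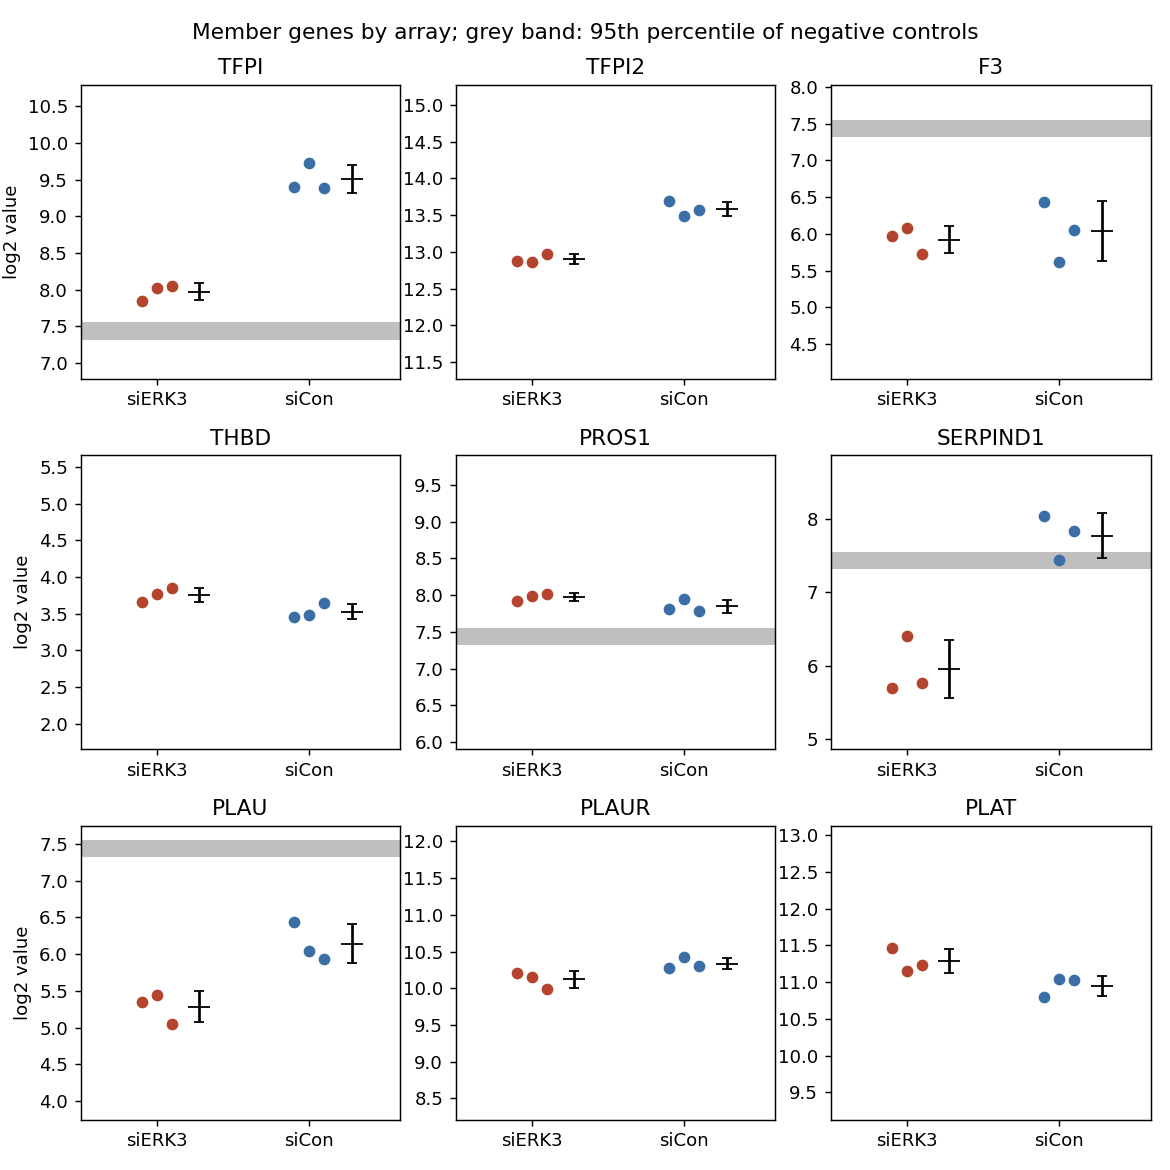
Log2 value of each of the 9 genes on the 3 siERK3 arrays (left, red) and the 3 siCon arrays (right, blue), with mean and SD in black and the range of the background level over the 6 arrays as a grey band. Every panel spans 4 log2 units, so distances compare across panels. TFPI, TFPI2, SERPIND1 and PLAU show the widest gaps between the groups, and F3 and PLAU lie below the band. The band is outside the panels of TFPI2, PLAUR and PLAT, whose values lie above it, and of THBD, whose values lie below it.

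TFPI encodes tissue factor pathway inhibitor, a Kunitz-type inhibitor of factor Xa and of the tissue factor and factor VIIa complex. Its probe set read 7.85, 8.03 and 8.05 in siERK3, against 9.40, 9.73 and 9.39 in siCon. The highest siERK3 array lay 1.34 below the lowest siCon array, and the SD within the groups was 0.11 in siERK3 and 0.19 in siCon. The fitted difference was -1.53 (SE 0.15, 95% interval -1.87 to -1.20), a 2.89-fold lower signal in siERK3. TFPI was chosen for its fall in this comparison, so the interval lacks its stated coverage and the difference may be overstated. The interval is not read as a test. All 3 siERK3 values lay within 1 log2 unit above the background level. With any 1 array left out the difference lay between -1.59 and -1.42. The call by which TFPI was chosen was lost in a fit without both siERK3 3 and siCon 2, where the difference was -1.46 (SE 0.16). That fit called 7 of all 17687 genes, against 169 with all 6 arrays. In bulk RNA, fewer cells expressing a gene and less RNA per cell cannot be told apart.

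TFPI2 encodes a second Kunitz-type inhibitor, secreted into the matrix, which acts on plasmin and trypsin and weakly on the tissue factor complex. It read 12.88, 12.86 and 12.98 in siERK3, against 13.69, 13.49 and 13.57 in siCon. The groups did not overlap, and the nearest arrays were 0.51 apart. The difference was -0.68 (SE 0.13, 95% interval -0.97 to -0.39), so that the siERK3 signal was 62.5% of the siCon signal. With 1 array left out the difference lay between -0.73 and -0.63. TFPI2 was not called in the fit that gave these values. It was called in 4 of 16 alternative fits, and in 0 of those with 1 array left out.

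F3 encodes tissue factor, the initiator of clotting. It read 5.96, 6.08 and 5.72 in siERK3, against 6.44, 5.62 and 6.06 in siCon, below background on every array and with overlapping groups. Its difference of -0.12 (SE 0.21, 95% interval -0.60 to 0.37) reversed to 0.083 without siCon 1. Neither a level nor a change of tissue factor mRNA was detectable at this signal.

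The starts of these 3 genes were examined because TFPI and TFPI2 both read lower in siERK3, TFPI2 without a call, while F3 lay below background. Windows of 250 bases before to 50 bases after the start were taken from RefSeq (GRCh38.p14) and matched 7 of the 9 genes, with 2 windows for PLAU. The windows shown are chr2:187554386-187554685 (minus strand) for TFPI, chr7:93890704-93891003 (minus strand) for TFPI2 and chr1:94541710-94542009 (minus strand) for F3. Each is written 5′ to 3′ on the strand of the gene. Capitals mark matches on either strand to an AP-1 site (TGANTCA), a GC box (GGGCGG), an E-box (CACGTG), an M-box (CATGTG) or a TATA box (TATAAA).
TFPI: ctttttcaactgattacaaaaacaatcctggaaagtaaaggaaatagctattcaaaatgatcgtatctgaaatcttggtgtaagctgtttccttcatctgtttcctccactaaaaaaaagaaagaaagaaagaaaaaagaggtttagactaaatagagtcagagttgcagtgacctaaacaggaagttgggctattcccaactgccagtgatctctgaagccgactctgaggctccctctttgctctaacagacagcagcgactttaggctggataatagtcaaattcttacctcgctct
TFPI2: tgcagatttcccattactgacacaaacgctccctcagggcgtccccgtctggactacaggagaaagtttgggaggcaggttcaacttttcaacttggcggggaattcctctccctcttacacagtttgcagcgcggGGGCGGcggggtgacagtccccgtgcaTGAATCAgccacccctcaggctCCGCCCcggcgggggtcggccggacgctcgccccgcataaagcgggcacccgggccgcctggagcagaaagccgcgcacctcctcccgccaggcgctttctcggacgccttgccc
F3: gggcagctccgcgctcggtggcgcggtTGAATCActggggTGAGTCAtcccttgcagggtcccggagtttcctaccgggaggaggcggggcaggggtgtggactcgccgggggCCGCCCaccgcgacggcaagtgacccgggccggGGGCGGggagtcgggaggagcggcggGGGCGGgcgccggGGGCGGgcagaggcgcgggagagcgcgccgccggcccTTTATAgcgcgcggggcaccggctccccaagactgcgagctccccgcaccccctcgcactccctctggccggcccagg

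The TFPI window held 0 matches to any of the 5 motifs and had a G and C content of 39.3%, below the lower quartile of 47.0% among all 35116 windows. The TFPI2 window held 1 AP-1 match, 87 bases before the start, and 2 GC boxes. The F3 window held 2 AP-1 matches, 4 GC boxes and 1 TATA box at 28 bases before the start, with 77.3% G and C. Among all windows 7.71% held an AP-1 match, 45.0% a GC box, 7.26% an E-box, 11.1% an M-box and 11.5% a TATA box. These are matches of letters in a short window and were not tested for binding.

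SERPIND1 encodes heparin cofactor II, a serpin that inhibits thrombin when dermatan sulfate or heparin is present. It read 5.69, 6.41 and 5.76 in siERK3, against 8.04, 7.44 and 7.84 in siCon. The nearest arrays of the groups were 1.03 apart, although this gene had the widest spread of the 9 within siERK3 (SD 0.40, and 0.31 in siCon). The fitted difference was -1.82 (SE 0.23, 95% interval -2.34 to -1.30). SERPIND1 too was chosen for its fall in this comparison, so its interval lacks its stated coverage and its difference may be overstated. Since all 3 siERK3 arrays lay below background, the signal was at least 1.32-fold lower in siERK3 on the deposited scale. In siCon the gene exceeded its array's background level by little, with siCon 2 at 7.44 against a level of 7.34. SERPIND1 left the calls without siERK3 1, siERK3 3, siCon 1 or siCon 3, and also without siERK3 3 and siCon 2 together, while its difference stayed between -2.04 and -1.68 with 1 array left out.

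The gene lies within the span of PI4KA, a lipid kinase gene, in RefSeq. PI4KA averaged 9.938 ± 0.083 in siERK3 and 9.923 ± 0.009 in siCon (SD, n = 3), a difference of 0.02 (SE 0.12; adjusted p = 0.978 in limma). The next measured genes on either side, MED15 and SNAP29, differed by 0.60 (adjusted p = 0.112) and -0.14 (adjusted p = 0.708). Around TFPI, the next measured genes GULP1 and CALCRL differed by -0.32 (adjusted p = 0.330) and -0.24 (adjusted p = 0.675), with CALCRL below background on all 6 arrays.

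The SERPIND1 window, chr22:20773863-20774162 (plus strand, RefSeq, GRCh38.p14), is shown because this gene and TFPI were the called ones, with the same marking of matches.
SERPIND1: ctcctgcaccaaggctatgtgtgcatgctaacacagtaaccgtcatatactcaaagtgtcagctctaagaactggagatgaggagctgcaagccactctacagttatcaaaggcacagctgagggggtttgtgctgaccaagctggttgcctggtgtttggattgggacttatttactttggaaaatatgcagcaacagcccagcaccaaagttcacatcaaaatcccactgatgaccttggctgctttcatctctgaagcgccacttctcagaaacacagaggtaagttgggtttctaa

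Like the window of TFPI and that at the first start of PLAU, this window held 0 matches to any of the 5 motifs. The share of all windows with no match to any motif was not computed. Its G and C content was 47.0%, at the lower quartile of all windows.

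THBD encodes thrombomodulin, the thrombin receptor that redirects thrombin to activate protein C. It read 3.66, 3.77 and 3.85 in siERK3, against 3.46, 3.48 and 3.64 in siCon. The siERK3 arrays were all higher, by as little as 0.02 between the nearest arrays, and all 6 values lay far below background, so no level of thrombomodulin mRNA was detectable. The difference was 0.23 (SE 0.13, 95% interval -0.07 to 0.53).

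PROS1 encodes protein S, the cofactor of activated protein C and of TFPI, and a ligand of the TAM receptor kinases. It read 7.92, 7.98 and 8.02 in siERK3, against 7.80, 7.95 and 7.79 in siCon, a little above background on every array. The groups overlapped, with siCon 2 inside the siERK3 range. The difference was 0.13 (SE 0.13, 95% interval -0.16 to 0.41). PROS1 has a closely related pseudogene, PROS2P, on the same chromosome, and whether its transcripts reach the probe set was not tested.

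PLAU encodes urokinase, the plasminogen activator that works on cell surfaces. It read 5.35, 5.45 and 5.05 in siERK3, against 6.44, 6.04 and 5.93 in siCon. The groups did not overlap, with siERK3 lower and 0.48 between the nearest arrays, but all 6 lay below background, and no fold is given. The difference of -0.85 (SE 0.18, 95% interval -1.26 to -0.45) lay between -0.96 and -0.70 with 1 array left out. PLAU was not called in the fit that gave these values. It was called in 2 of 15 alternative fits, and in 0 of those with 1 array left out.

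PLAUR encodes the urokinase receptor, a membrane protein held by a lipid anchor. It read 10.21, 10.15 and 10.00 in siERK3, against 10.28, 10.42 and 10.30 in siCon, well above background. The siERK3 arrays were all lower, but the nearest arrays were only 0.07 apart. The difference was -0.22 (SE 0.13, 95% interval -0.51 to 0.08).

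PLAT encodes tissue-type plasminogen activator, the secreted activator that works on fibrin. It read 11.46, 11.15 and 11.23 in siERK3, against 10.79, 11.04 and 11.03 in siCon. It was the only one of the 5 genes above background on every array in which all siERK3 arrays were higher than all siCon arrays, with 0.11 between the nearest. The difference was 0.33 (SE 0.15, 95% interval -0.002 to 0.66).

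**Figure D2:**
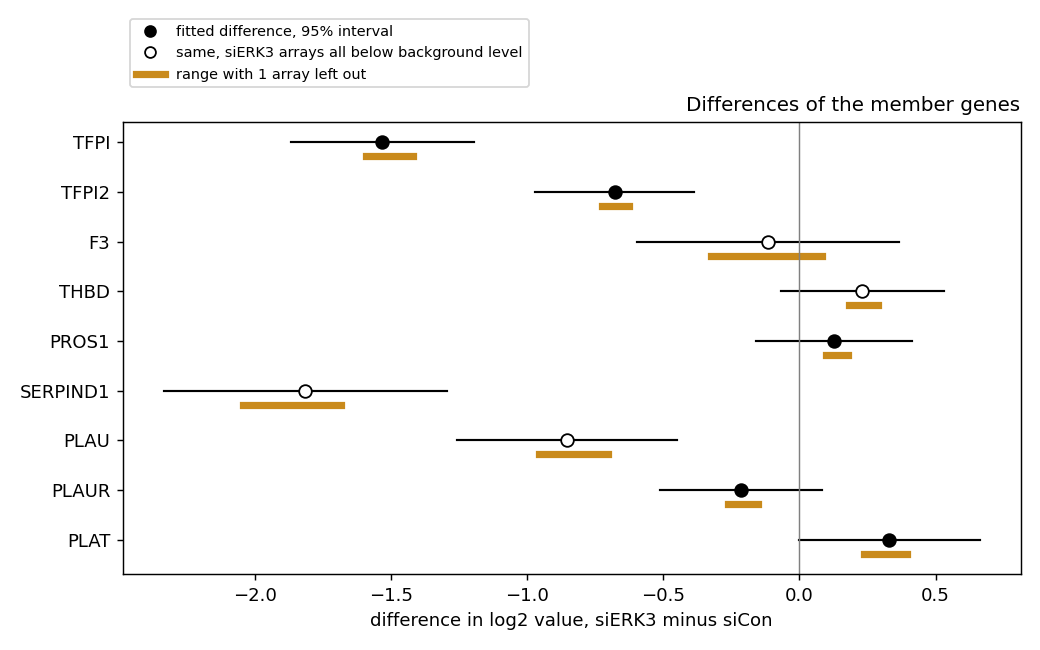
Fitted difference in log2 value, siERK3 minus siCon, for the 9 genes (points) with 95% intervals (black lines) and the range of the difference when 1 of the 6 arrays was left out (orange lines); open points mark genes whose siERK3 arrays all lay below background. The points of TFPI, TFPI2, SERPIND1 and PLAU lie farthest below 0, and the left-out range crosses 0 for F3 and for none of the other 8. The intervals do not allow for the choice of TFPI and SERPIND1 by their fall in this comparison.

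The PLAUR window, chr19:43670120-43670419 (minus strand, RefSeq, GRCh38.p14), is shown because it holds an AP-1 match as those of TFPI2 and F3 do, 186 bases before the start.
PLAUR: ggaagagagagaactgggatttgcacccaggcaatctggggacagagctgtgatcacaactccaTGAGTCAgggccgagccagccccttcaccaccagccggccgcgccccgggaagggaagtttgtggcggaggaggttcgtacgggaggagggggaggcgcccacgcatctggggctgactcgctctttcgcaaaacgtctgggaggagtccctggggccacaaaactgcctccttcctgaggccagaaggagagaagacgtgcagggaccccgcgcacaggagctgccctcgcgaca

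AP-1 matches were thus found in the windows of TFPI2, F3 and PLAUR, and in 0 windows of TFPI, SERPIND1, PROS1 and PLAU. PROS1 held 2 GC boxes, and PLAU held 3 in the window at its second start and 0 in that at its first.

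Of 60 other genes of the same pathways, in 7 lists, 57 were measured, and the other 3 were not analysed here. Of the 57, 1 rose, 0 fell and 56 did not pass limma's test, beside 0.447% higher and 0.509% lower over all genes. All 6 values of 36 of the 57 lay below background, beside 8838 of all 17687 genes. This limits what could be seen of their changes. With no adjustment, 6 of the 57 were higher and 1 lower at p under 0.05, against 2384 of all 17687 genes in either direction. This share over all genes, 2384 of 17687 in either direction, is to be set beside each unadjusted count given below. It is not repeated at every count. The median difference of the 57 was 0.01. The gene that rose, A2M, encodes a broad protease inhibitor that also traps plasmin. It averaged 9.29 ± 0.22 in siERK3 and 7.16 ± 0.34 in siCon (SD, n = 3), with 0 of 3 siCon arrays above background. On the deposited scale it was at least 3.65-fold higher in siERK3 (difference 2.13, SE 0.20, adjusted p = 0.00420 in limma). It was called in all 6 fits with 1 array left out, and not in the fit without siERK3 3 and siCon 2, where its difference was 2.00.

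Of 16 clotting factors, 0 lay above background on any array and 0 passed in limma (unadjusted p under 0.05: 1 higher, 0 lower). F7 and F10, the protease partner and the substrate of tissue factor, had differences of -0.02 and -0.04, and F2, the gene of prothrombin, of 0.02. F5, the gene of the factor Xa cofactor, had the smallest p of the list at 0.50 (SE 0.16; adjusted p = 0.216 in limma). FGB, a fibrinogen chain, had a difference of -0.40.

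Among 8 inhibitors of clotting and genes of the protein C system, 0 passed in limma. At an unadjusted p under 0.05, 3 were higher (PROCR, PROC and SERPINC1) and 0 lower, beside 2384 of all 17687 genes in either direction. PROCR, the endothelial protein C receptor, lay well above background at 11.86 ± 0.13 in siERK3 and 11.52 ± 0.13 in siCon (SD, n = 3). Its groups did not overlap, and its difference of 0.34 (SE 0.14) did not pass (adjusted p = 0.334 in limma). PROC, protein C itself, and SERPINC1, antithrombin, were below background on all 6 arrays, with differences of 0.50 and 0.39. SERPINE2, protease nexin 1, an inhibitor of thrombin and urokinase, had a difference of 0.03 (SE 0.12). It read 18.53 in siERK3 and 18.50 in siCon, near the top of the scale, where a change may not be visible.

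The receptors through which thrombin acts on cells were above background on all 6 arrays in all 3 measured cases, and 0 passed in limma (unadjusted p under 0.05: 0 higher, 1 lower). F2R, the main thrombin receptor, had a difference of 0.35 (SE 0.15; adjusted p = 0.381 in limma). F2RL2, another thrombin receptor, had a difference of -0.38 (SE 0.15; adjusted p = 0.320 in limma). In both genes the groups did not overlap, by 0.0053 between the nearest arrays for F2R and 0.036 for F2RL2. Over all genes 10.1% were separated with siERK3 above and 9.7% with siERK3 below.

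Of the plasminogen and inhibitor list, 7 genes were measured and the 6 other than A2M lay below background on all 6 arrays, PLG and VTN among them, with differences of -0.00028 and -0.14. The 6 cell-surface receptors of plasminogen and its activators all lay above background on all 6 arrays, and 0 passed in limma (0 at an unadjusted p under 0.05). ANXA2 and S100A10, which form the annexin A2 complex that binds tissue-type activator and plasminogen, had differences of -0.10 and -0.19. LRP1, the endocytic receptor that clears urokinase and TFPI, had a difference of 0.28 (SE 0.14; adjusted p = 0.430 in limma), and MRC2, a collagen receptor associated with the urokinase receptor, of 0.24.

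Of 10 Kunitz-type inhibitors related to TFPI, 0 passed in limma (0 at an unadjusted p under 0.05) and 2, APP and APLP2, lay above background. SPINT2, which inhibits hepatocyte growth factor activator, AMBP and EPPIN had differences of -0.15, 0.27 and 0.38, all below background on all 6 arrays. The 7 genes of gamma-carboxylation, the modification protein S needs, and of the protein S receptors also had 0 past limma's test (unadjusted p under 0.05: 1 higher, 0 lower). The carboxylase GGCX had a difference of 0.13. AXL, a TAM receptor kinase, had a difference of -0.25 (SE 0.16; adjusted p = 0.565 in limma), and its ligand GAS6 and its relative MERTK, both below background on all 6 arrays, had differences of 0.13 and 0.43. Of the pathway genes named here, GAS6, GGCX, F2, F7, F10 and PLG changed sign when 1 or another of the arrays was left out.

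**Figure D3:**
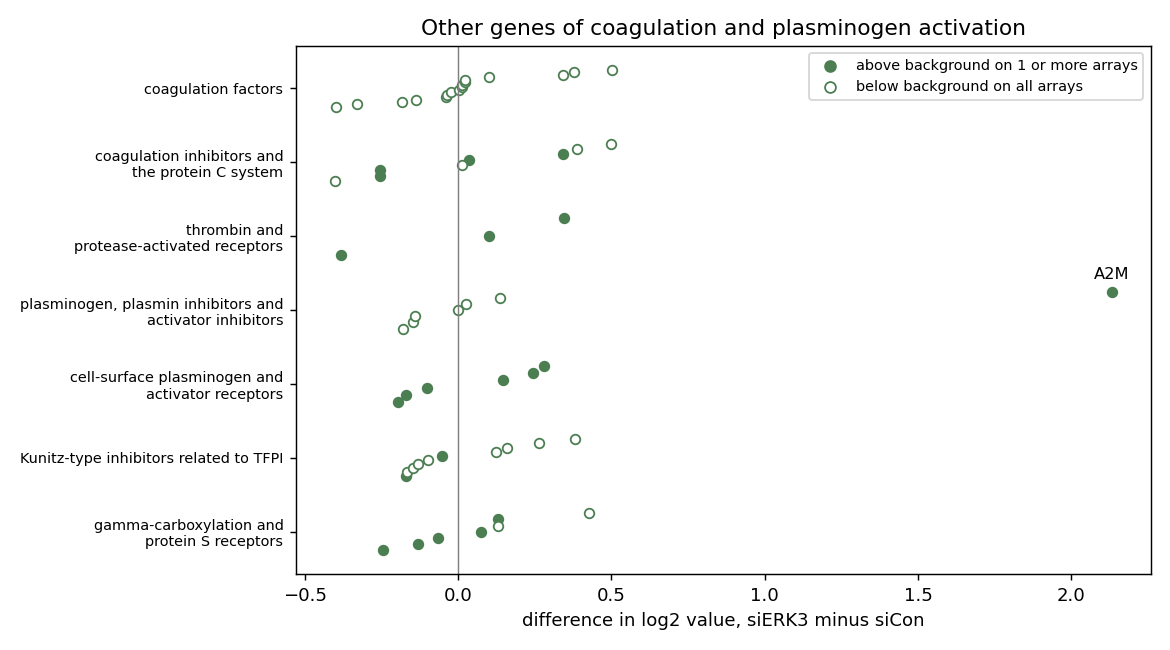
Difference in log2 value, siERK3 minus siCon, of the 57 measured genes of 7 pathway lists, 1 point per gene; filled points lay above background on at least 1 array and open points on none, and the gene past limma's test is named. A2M stands at 2.13, and the other 56 genes lie between -0.40 and 0.50.

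Markers of other cell types known to carry genes of these pathways were mostly below background, where 8838 of all 17687 genes lay on all 6 arrays. Of 8 endothelial markers, 0 lay above background on any array, with a mean log2 level between 4.946 and 5.055 in siERK3 and between 5.056 and 5.112 in siCon. Of 5 platelet and megakaryocyte markers 0 lay above background, with means of 4.49 to 4.52 in siERK3 and 4.34 to 4.59 in siCon. Of 7 hepatocyte markers 1 did, SERPINA1 (8.48 in siERK3 and 8.93 in siCon; adjusted p = 0.276 in limma), while ALB lay at 5.25 in siERK3 and 5.11 in siCon; the list's means were 4.97 to 5.31 in siERK3 and 4.90 to 5.12 in siCon. Leukocyte markers above background were CD68 and LYZ, 2 of 7, with list means of 6.29 to 6.36 in siERK3 and 6.47 to 6.60 in siCon. None passed limma's test. At an unadjusted p under 0.05, 0 were higher and 2 lower (CD68 and LYZ), beside 2384 of all 17687 genes in either direction. Of 6 fibroblast markers 3 lay above background on at least 1 array, with list means of 7.06 to 7.26 in siERK3 and 6.88 to 7.24 in siCon (unadjusted p under 0.05: 1 higher, 1 lower). Of these 3, LUM fell by 0.83 (adjusted p = 0.0441 in limma), PDGFRB had a difference of 0.75 (adjusted p = 0.0631 in limma) with all siERK3 arrays above all siCon arrays, and COL1A2 had a difference of -0.21. The leukocyte means were lower on every siERK3 array than on any siCon array. Of its markers, CD68 and LYZ had differences of -0.47 and -0.85, and the other 5, below background, had differences of both signs. The endothelial means were separated only by the step from 5.055 to 5.056, with all 8 markers below background and differences of both signs. Over all genes 9.7% were separated with siERK3 below. The part of these markers in the differences above was not tested.

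The 5 genes whose values over the 6 arrays lay nearest to those of TFPI, out of 7720 other genes above background on all arrays, were NT5E, ADAM19, LIMK1, TLR6 and DNAH9. Nearness was the root mean square difference of log2 values after each gene's siCon mean was subtracted. It was 0.13 for NT5E, 0.18 for ADAM19, 0.19 for LIMK1 and 0.21 for TLR6 and DNAH9. Their fitted differences were -1.58, -1.63, -1.70, -1.44 and -1.29 in that order, beside -1.53 for TFPI. All share the same 6 arrays, so the likeness is a description of these arrays.

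**Figure D4:**
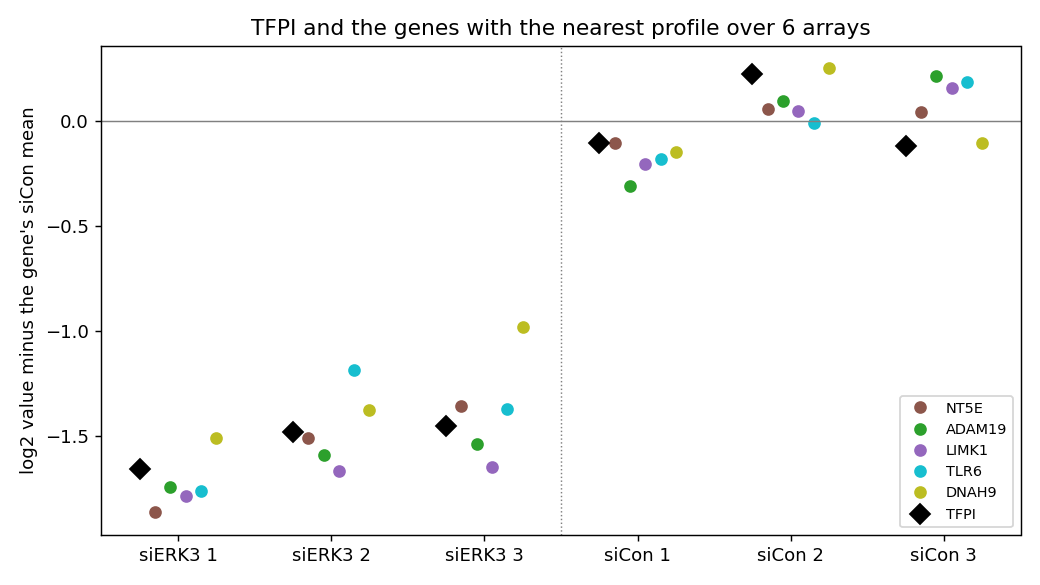
Log2 value minus the gene's siCon mean on each of the 6 arrays, siERK3 arrays left of the dotted line and siCon arrays right of it, for TFPI (black diamonds) and the 5 nearest genes (coloured points). On siERK3 arrays TFPI lies between -1.66 and -1.46, and the points of all 6 genes are clear of those on siCon arrays.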

How the data were processed

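The values analysed are the log2 values per probe set that the authors deposited for 6 arrays, 3 siERK3 and 3 siCon. That they are log2 was inferred from the values, which reach 19.4. Between 1.46% and 1.61% of probe sets exceed 16, more than a 16-bit scan can hold. The zero point of the scale is thus unknown, and a stretch, which would alter the folds, cannot be seen. For the authors' normalization, software and background correction: not given in the sources used here. Of 24351 probe sets, 17709 had 1 gene symbol in the platform annotation; the brightest by mean was kept for each of 17687 genes, and levels of different genes are not compared. The test was limma 3.58.1 (R 4.3.3, lmFit and eBayes, 2 groups, no filter), with p-values adjusted over all genes by Benjamini-Hochberg and a threshold of 0.05. SE and 95% intervals come from this fit. The number of arrays limits the precision. A fold is given as "at least" where 1 group lay wholly below background, the 95th percentile of 612 negative controls. A stretch of the scale would alter this bound as well. The scripts were tested on simulated data.

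The 9 genes, the pathway and marker lists and the naming rule were chosen with earlier results of these data known. The rule named MAPK6, the 9 genes, pathway genes picked by role, those past the threshold, the 2 with the smallest p of each list, and the 5 genes nearest TFPI. Chromosomal neighbours, markers, APP and APLP2 were picked after seeing values. Alternatives were other normalizations, filters, probe set summaries and variance models, a replicate block and left-out arrays; leaving out siERK3 3 and siCon 2 together was added after seeing the data. Sequences are RefSeq's (GRCh38.p14).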

Additional observations from a re-analysis of the deposited data

How the results depend on the processing

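The differences of TFPI, TFPI2, THBD, PROS1, SERPIND1, PLAU, PLAUR and PLAT kept their sign under every alternative that tested them, and MAPK6 was called in all. With the dimmest 30% of genes left out, 184 of 12381 genes were called higher and 181 lower in siERK3. Among the lower were 4 of the 9, and THBD was not tested there. With genes under the median level left out, 281 of 8843 genes were called higher and 300 lower. That fit did not test F3, THBD, SERPIND1 and PLAU, and 2 of the 9, TFPI and TFPI2, were called lower. With a mean-variance trend and robust variance, 343 of all 17687 genes were called higher and 379 lower. Again 4 of the 9 were among the lower. Both filters adjust over fewer genes by construction; the cause of the other shifts was not tested. With 1 array left out, 9 to 30 genes were called higher and 13 to 30 lower, and 1 to 2 of the 9. Without siERK3 3 and siCon 2 together, 2 were called higher and 5 lower, with 0 of the 9 and 0 of the pathway genes, and ANXA2 turned to 0.0067. Replicate numbers did not pair the arrays: deviations of same-numbered arrays correlated at 0.05, -0.12 and -0.04 across genes. Pairs with unlike numbers ranged from -0.15 (siERK3 3 with siCon 1) to 0.17 (siERK3 3 with siCon 2). With a replicate block 11 genes were called higher and 22 lower, 1 of the 9 (TFPI) among them. Among the named genes, F10 was 0.093 with its probe sets averaged, and F2 -0.018 with array weights. With 1 array left out, F3 ranged from -0.32 to 0.083, F7 from -0.16 to 0.12, F10 from -0.14 to 0.050, F2 from -0.081 to 0.13, PLG from -0.23 to 0.18, GAS6 from -0.099 to 0.28 and GGCX from -0.055 to 0.25. Signal below background limits what can be seen of changes in F3, THBD, PLAU and the clotting factors.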
